A study of Mus musculus with 10 samples.

Results

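Langerhans cells and dendritic cells of the skin were followed through 10 marker genes in whole-skin RNA of mice that overexpress the secreted serine protease KLK6 in keratinocytes. The markers were Cd207, Epcam, Flt3, Zbtb46, Itgax, Xcr1, Clec9a, Cd209a, Clec10a and Ccr7. They were taken by gene symbol from the 20611 genes listed for each mouse, and all 10 were present and had enough counts to be tested, as did 14861 genes in all. The 5 Klk6+ mice (replicates 1 to 3 male, 4 and 5 female) carried both a Tetos-Klk6 transgene, which encodes mouse Klk6 with a Myc/His tag, and the K5-tTA driver, in which a bovine Keratin 5 promoter makes the tetracycline transactivator in keratinocytes and some other stratified epithelia. The 5 WT mice, numbered by sex in the same way, were littermates in which the transgene was not expressed. Per the labels' protocols some of them could carry Tetos-Klk6 or K5-tTA alone, and the label of a single library does not say which. The lines were backcrossed to C57BL/6 and mated on doxycycline, which keeps the transgene silent. The protocols state that Klk6+ mice were put back on doxycycline chow when 10 to 11 weeks old, which implies a period without it whose start is not stated, and that tissue was taken at 14 to 16 weeks. Whether doxycycline was still given at that time is not stated, and the Klk6 transcript level at collection is given below. Age and doxycycline history are given for the series and not for each mouse.

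Langerhans cells are antigen-presenting cells that live in the epidermis, where they bind keratinocytes through E-cadherin, take up glycans through langerin, the product of Cd207, and carry EpCAM, which in mice promotes their migration. The dermis holds conventional dendritic cells, which in mice are divided into a cross-presenting class (cDC1, marked by XCR1 and CLEC9A) and a class that mainly presents antigen to helper T cells (cDC2). Both depend on FLT3 and its ligand and carry the transcription factor ZBTB46, while Langerhans cells are maintained by CSF1R ligands, IL-34 among them, and by TGF-beta. On maturation, dendritic cells and Langerhans cells switch on CCR7 and leave through lymphatic vessels.

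Total counts were 26521019 to 39796511 in the Klk6+ libraries and 32798416 to 41970272 in the WT libraries, and a single count stood for 0.0230 to 0.0373 CPM (counts scaled by library size and composition). Klk6 itself had 10293 to 14773 CPM in Klk6+ skin and 12.7 to 26.5 CPM in WT skin. The genotypes differed in most of the transcriptome. Of the genes tested, 72.8% differed by genotype at an adjusted p below 0.05 (37.7% higher and 35.1% lower in Klk6+), and 57.0% had CPM ranges that did not overlap between genotypes. On the first principal component (78.3% of the variance) the genotypes were apart, and Klk6+ replicates 3 and 5 lay away from the other Klk6+ libraries on the second (7.85%). Marker lists of other tissues moved as well. All 16 skeletal muscle, all 10 fibroblast and 9 of 10 adipocyte genes fell in Klk6+ skin, and the summed muscle level was 4957 to 10169 CPM in Klk6+ libraries and 63172 to 94166 CPM in WT libraries. The summed neutrophil level was 6018 to 9948 CPM in Klk6+ libraries and 55.2 to 83.7 CPM in WT libraries. In whole skin, fewer cells of a type and less RNA per cell cannot be told apart, and the part that tissue composition has in the values below was not tested.

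Of the 10 markers, 8 were lower in Klk6+ skin, Epcam was higher and Ccr7 did not pass the test (edgeR quasi-likelihood F test with sex as covariate, Benjamini-Hochberg adjustment over all genes tested). The count of 8 lower markers stands beside a background of 35.1% of all genes, and 8 markers were also at least 2-fold lower, which held for 20.5% of all genes. The median log2 fold change of the markers was -1.55, against 0.04 for all genes tested. For 7 markers the CPM ranges of the genotypes did not overlap, 6 of them lower and 1 higher in Klk6+, beside a background of 27.0% lower and 30.1% higher. Within males (3 against 3 libraries) and within females (2 against 2) taken separately, 9 markers had no overlap. The share of all genes without overlap within a sex was not computed. So few libraries separate easily, and this count is a description that cannot be weighed against the 7 above. For Clec10a in males the highest Klk6+ library and the lowest WT library both rounded to 81.9 CPM.

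**Figure D1:**
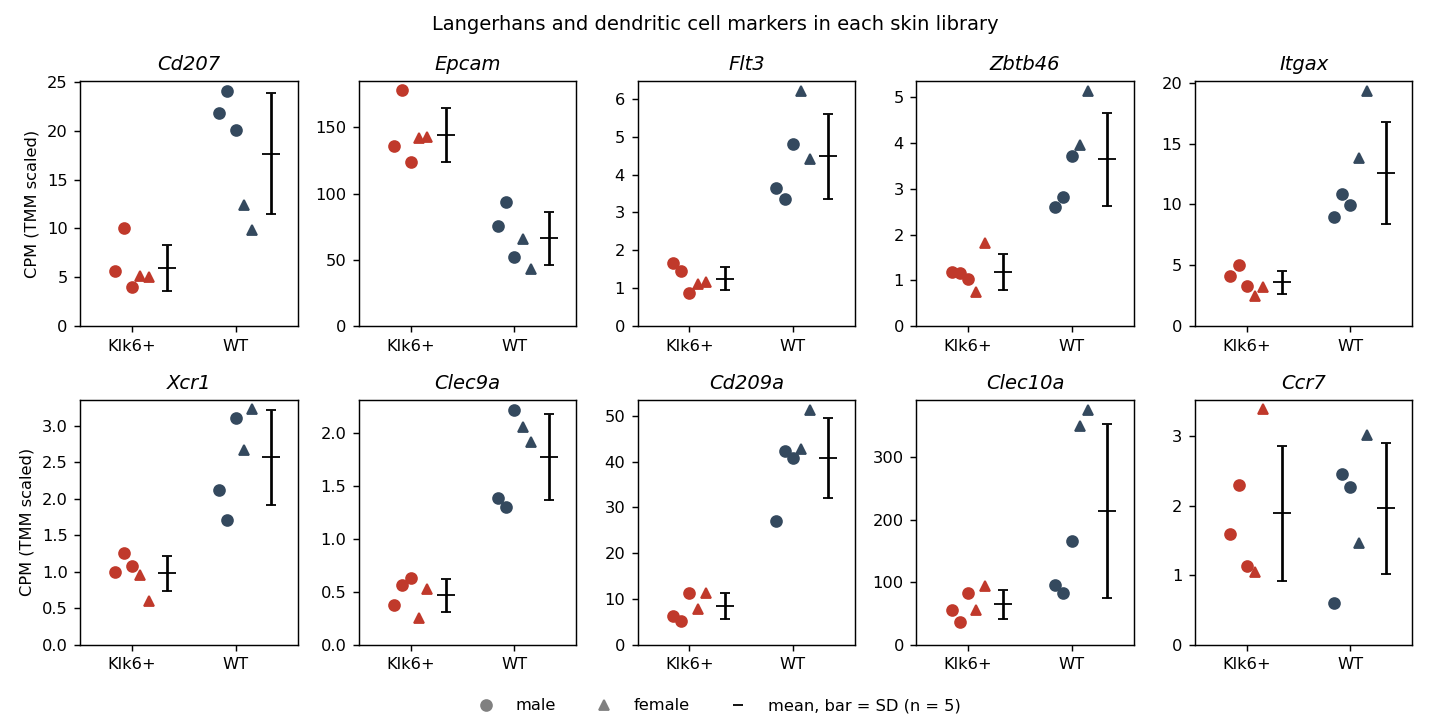
CPM of each marker (vertical axis, scaled by trimmed mean of M values) in the 5 Klk6+ and 5 WT libraries, with circles for males, triangles for females, and mean and SD beside them. In total 8 markers lie lower in Klk6+, Epcam lies higher at 124 to 178 against 42.7 to 94.0 CPM, and Ccr7 spans the same range in both.

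The Langerhans cell gene Cd207 (chr6:83671215-83677857, minus strand, GRCm38) encodes langerin, the C-type lectin that forms Birbeck granules, and in mouse skin it is also made by a share of dermal cDC1. It had 5.64, 10.1, 3.95, 5.12 and 5.03 CPM in Klk6+ replicates 1 to 5, and 21.9, 24.1, 20.1, 12.3 and 9.88 CPM in WT replicates 1 to 5. The mean was 5.96 ± 2.38 CPM in Klk6+ and 17.6 ± 6.19 CPM in WT (SD, n = 5 each). Klk6+ replicate 2 overlapped the WT range at the level of WT replicate 5, a female, and the genotypes were apart within each sex. The log2 fold change was -1.51 ± 0.24 (SE; edgeR adjusted p = 0.000273), a 2.84-fold lower level in Klk6+.

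Epcam (chr17:87635979-87651129, plus strand) encodes an epithelial adhesion molecule that Langerhans cells carry and that hair follicle and gland epithelium carry too. It had 136, 178, 124, 142 and 143 CPM in Klk6+ replicates 1 to 5, and 75.7, 94.0, 52.5, 65.7 and 42.7 CPM in WT replicates 1 to 5. Every Klk6+ library lay above every WT library. The mean was 144.5 ± 20.3 CPM in Klk6+ and 66.1 ± 20.02 CPM in WT, with a log2 fold change of 1.14 ± 0.19 (edgeR adjusted p = 0.000330), a 2.21-fold higher level in Klk6+. Epcam was therefore the only marker of the 10 to rise.

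Epithelial lists were read beside Epcam, with 37.7% of all genes higher and 35.1% lower as background. Of 13 interfollicular keratinocyte genes 7 rose and 2 fell (1 fell without Klk6+ replicate 2 or 3 or WT replicate 1, 2 or 4), and their summed level was 26327 to 37705 CPM in Klk6+ libraries and 8088 to 21966 CPM in WT libraries. Krt5, the basal keratin, had a log2 fold change of 1.09 ± 0.23, Krt14 of 3.52 and Krt1 of 2.78. Of 21 hair follicle and simple epithelium genes 8 rose and 5 fell, a share of higher genes near the background, with Krt17 at 3.26 and Cd24a at 1.63 among those that rose and Krt15 at -3.11 among those that fell. When libraries were scaled by housekeeping genes, 5 of that list rose and 9 fell, and 5 rose without Klk6+ replicate 4. Of 12 sebaceous gland genes 11 rose, with Elovl3 at 5.55.

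Ratios within a library do not depend on library scaling. Cd207 over Epcam was -4.66 ± 0.318 in Klk6+ and -1.93 ± 0.381 in WT on the log2 scale, a difference of -2.73 (two-sided exact permutation test over all assignments of libraries, p = 0.00794, the smallest it can give, and 0.0238 after adjustment over 15 ratios). Cd207 over Krt5 was -9.82 ± 0.560 in Klk6+ and -7.16 ± 0.198 in WT, a difference of -2.66 with the same adjusted exact permutation p. Epcam over Krt5 was -5.15 ± 0.323 in Klk6+ and -5.22 ± 0.299 in WT, a difference of 0.07 (exact permutation p = 0.675, adjusted 0.843). The Cd207 signal lay lower relative to both epithelial genes in all 5 Klk6+ libraries, while Epcam over Krt5 overlapped between genotypes. Both Cd207 ratios restate its fall (log2 fold change -1.51) beside the rises of Epcam (1.14) and Krt5 (1.09). They are no separate result about Cd207.

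**Figure D2:**
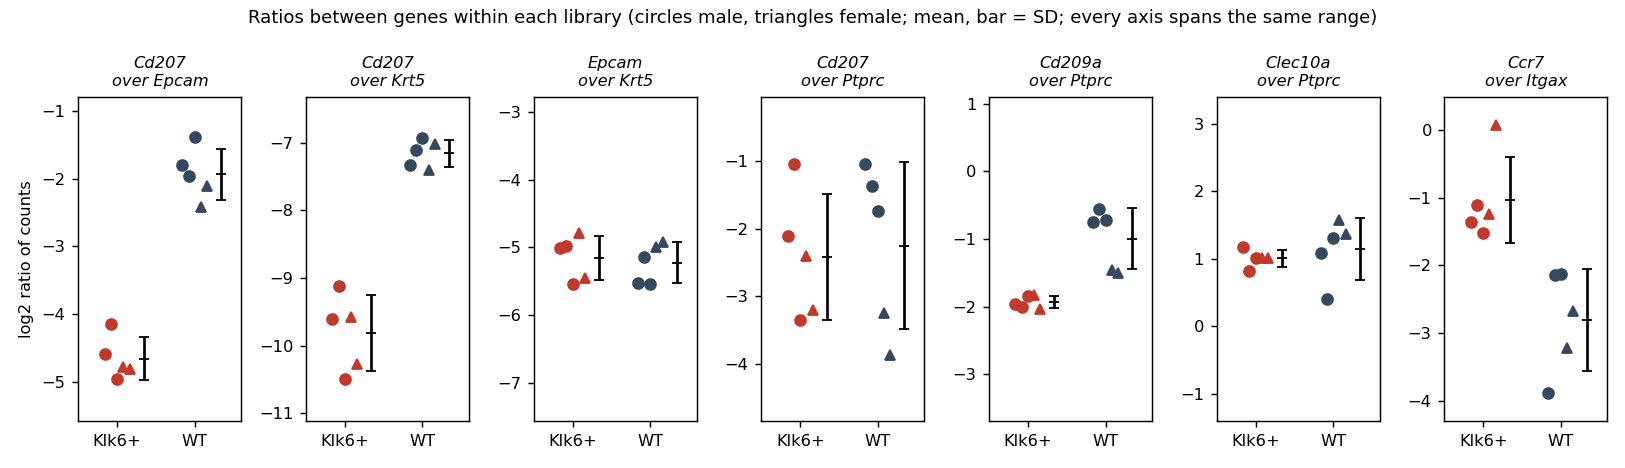
Log2 ratios of counts (vertical axes, of equal span) for 7 gene pairs in each Klk6+ and WT library, with mean and SD. Cd207 over Epcam and Cd207 over Krt5 are apart between genotypes, and Epcam over Krt5, Cd207 over Ptprc and Clec10a over Ptprc overlap.

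Promoters were read to place sequence beside the values. RefSeq (GRCm38.p6) held a promoter, 250 bases before to 50 after the start, for 8 of the 10 markers. Those of Cd207, the Langerhans cell gene, Cd209a, the marker with the greatest fall, and Epcam, the marker that rose, are shown 5′ to 3′ on the gene's own strand, with motif matches in capitals. They lie at chr6:83677808-83678107, chr8:3748935-3749234 and chr17:87635729-87636028.
Cd207: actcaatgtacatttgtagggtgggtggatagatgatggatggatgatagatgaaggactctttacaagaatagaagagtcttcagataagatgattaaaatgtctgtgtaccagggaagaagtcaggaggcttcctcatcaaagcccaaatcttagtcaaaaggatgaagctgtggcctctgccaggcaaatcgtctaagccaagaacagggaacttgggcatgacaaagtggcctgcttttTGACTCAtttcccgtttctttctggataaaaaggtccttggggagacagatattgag
Cd209a: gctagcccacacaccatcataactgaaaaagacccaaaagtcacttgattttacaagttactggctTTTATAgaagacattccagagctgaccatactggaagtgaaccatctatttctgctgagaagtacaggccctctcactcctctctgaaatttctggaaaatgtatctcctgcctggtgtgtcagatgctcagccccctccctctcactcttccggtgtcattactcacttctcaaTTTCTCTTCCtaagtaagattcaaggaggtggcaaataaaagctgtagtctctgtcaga
Epcam: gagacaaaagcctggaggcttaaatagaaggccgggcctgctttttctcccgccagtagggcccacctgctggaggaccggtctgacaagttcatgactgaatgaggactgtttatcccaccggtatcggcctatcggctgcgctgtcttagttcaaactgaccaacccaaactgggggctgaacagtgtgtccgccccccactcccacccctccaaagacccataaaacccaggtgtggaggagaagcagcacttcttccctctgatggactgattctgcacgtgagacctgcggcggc
The motifs searched, on both strands, were GAGGAAGT (PU.1), the joint ETS and IRF element, the interferon-stimulated response element, TGANTCA (AP-1) and TATAAA (a core promoter box). Matches of the PU.1 motif and the joint element can overlap, since both hold GGAA. In Cd207 the capitals mark TGANTCA beginning 7 bases before the start, a motif found in 7.81% of 32851 mouse promoters and also in the promoters of Zbtb46 and Itgax. In Cd209a the capitals mark TATAAA on the opposite strand, found in 13.6% of promoters and also in those of Clec9a and Xcr1, and the joint ETS and IRF element on the opposite strand across the start, found in 2.72% of promoters. None of the 5 motifs matched in the Epcam promoter, and GAGGAAGT (3.2%) and the interferon-stimulated response element (3.44%) matched in none of the 8. The Epcam promoter had 11 CpG, against 2 in Cd207 and 1 in Cd209a, with a median of 7.0 over all promoters. A match is a description of these letters and not of binding.

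Flt3, Zbtb46 and Itgax are shared by the conventional dendritic cells. Flt3 (chr5:147330741-147400489, minus strand) encodes the receptor for the growth factor on which these cells depend. It had 1.67, 1.46, 0.869, 1.11 and 1.155 CPM in Klk6+ replicates 1 to 5, and 3.65, 3.35, 4.81, 6.20 and 4.42 CPM in WT replicates 1 to 5. No Klk6+ library reached the lowest WT library. The mean was 1.25 ± 0.315 CPM in Klk6+ and 4.49 ± 1.12 CPM in WT, with a log2 fold change of -1.82 ± 0.24 (edgeR adjusted p = 7.43e-05).

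Zbtb46 (chr2:181387762-181459426, minus strand) encodes a transcription factor of conventional dendritic cells that endothelium also carries. It had 1.19, 1.15, 1.03, 0.741 and 1.83 CPM in Klk6+ replicates 1 to 5, and 2.60, 2.82, 3.71, 3.95 and 5.14 CPM in WT replicates 1 to 5. The ranges were apart, with a log2 fold change of -1.59 ± 0.25 (edgeR adjusted p = 0.000244). Itgax (chr7:128129547-128150657, plus strand), the integrin chain CD11c of dendritic cells and some macrophages, had 4.08, 4.98, 3.26, 2.50 and 3.20 CPM in Klk6+ replicates 1 to 5, and 8.98, 10.9, 9.96, 13.8 and 19.3 CPM in WT replicates 1 to 5. Its log2 fold change was -1.77 ± 0.26 (edgeR adjusted p = 0.000148), and the female WT libraries were the highest. Of the 50-base windows in Itgax transcripts, 8.02% also occur in the neighbouring integrin gene Itgad, so some of its reads could be counted to either gene.

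The cDC1 markers, the lowest of the 10 per transcript length in both genotypes, both fell. Xcr1 (chr9:123852315-123862029, minus strand) encodes the receptor for the chemokine XCL1. It was counted 35, 36, 41, 31 and 16 times in Klk6+ replicates 1 to 5, and 92, 71, 104, 91 and 108 times in WT replicates 1 to 5, which gave 0.976 ± 0.241 CPM in Klk6+ and 2.56 ± 0.648 CPM in WT. The ranges did not overlap, and the log2 fold change was -1.39 ± 0.26 (edgeR adjusted p = 0.000732).

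Clec9a (chr6:129408862-129424763, plus strand) encodes a lectin that recognises dead cells. It was counted 13, 16, 24, 8 and 14 times in Klk6+ replicates 1 to 5, and 60, 54, 74, 70 and 64 times in WT replicates 1 to 5, which gave 0.465 ± 0.155 CPM in Klk6+ and 1.77 ± 0.409 CPM in WT. Its log2 fold change was -1.92 ± 0.29 (edgeR adjusted p = 0.000187), a 3.78-fold lower level. Its exons overlap those of Clec1b on the same strand by 184 bases, and 4.02% of its 50-base windows also occur there. Xcl1, the XCR1 ligand made by natural killer and T cells, was counted 26 times in all Klk6+ libraries and 308 times in all WT libraries, with a log2 fold change of -3.28 ± 0.48, and is named after its values were seen.

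The markers of cDC2, which macrophages and monocyte-derived cells of the dermis share, held the greatest fall. Cd209a (chr8:3743397-3748984, minus strand), a mouse relative of the lectin DC-SIGN, had 6.23, 5.16, 11.2, 7.69 and 11.3 CPM in Klk6+ replicates 1 to 5, and 27.0, 42.4, 40.7, 42.7 and 51.2 CPM in WT replicates 1 to 5. The highest Klk6+ library stood well under the lowest WT library. The mean was 8.33 ± 2.84 CPM in Klk6+ and 40.8 ± 8.75 CPM in WT, with a log2 fold change of -2.29 ± 0.23 (edgeR adjusted p = 1.07e-05), a 4.88-fold lower level and the furthest from 0 of the 10 markers.

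Clec10a (chr11:70156197-70170834, plus strand) encodes the galactose-type lectin MGL1. It had 54.6, 36.4, 81.9, 54.8 and 94.2 CPM in Klk6+ replicates 1 to 5, and 95.6, 81.9, 166, 350 and 375 CPM in WT replicates 1 to 5. The spread was widest here in WT, with the females far above the males, and the genotypes overlapped. The log2 fold change was -1.50 ± 0.34 (edgeR adjusted p = 0.00243), the least certain of the 9 calls. Of its 50-base windows 9.02% occur in other genes, mainly its near copy Mgl2. Mgl2 (CD301b), which marks a dermal cDC2 class in mice, had 13.6 ± 2.72 CPM in Klk6+ and 132 ± 36.7 CPM in WT, a log2 fold change of -3.24 ± 0.20. Of 5 further Cd209 genes, 3 fell, namely Cd209b (-1.68 ± 0.32), Cd209d (-1.42 ± 0.27) and Cd209f (-3.26 ± 0.30), and the others did not pass.

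Ccr7 (chr11:99144196-99155077, minus strand) encodes the receptor that guides mature dendritic cells, Langerhans cells and naive T cells to lymph nodes. It had 1.59, 2.30, 1.13, 1.05 and 3.39 CPM in Klk6+ replicates 1 to 5, and 0.597, 2.46, 2.27, 1.46 and 3.02 CPM in WT replicates 1 to 5. The genotypes covered the same range, and the log2 fold change was -0.06 ± 0.45 (edgeR adjusted p = 0.909). With counts of 34 to 91 in Klk6+ and 26 to 102 in WT, the spread between mice leaves a change of moderate size undetectable here. Relative to Itgax, Ccr7 was -1.03 ± 0.638 in Klk6+ and -2.81 ± 0.753 in WT on the log2 scale, a difference of 1.78 (exact permutation p = 0.00794, adjusted 0.0238). That call was lost without Klk6+ replicate 5, where the adjusted exact permutation p was 0.0714. The ratio restates the fall of Itgax (log2 fold change -1.77) beside the Ccr7 value of -0.06, and is no separate result about Ccr7.

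**Figure D3:**
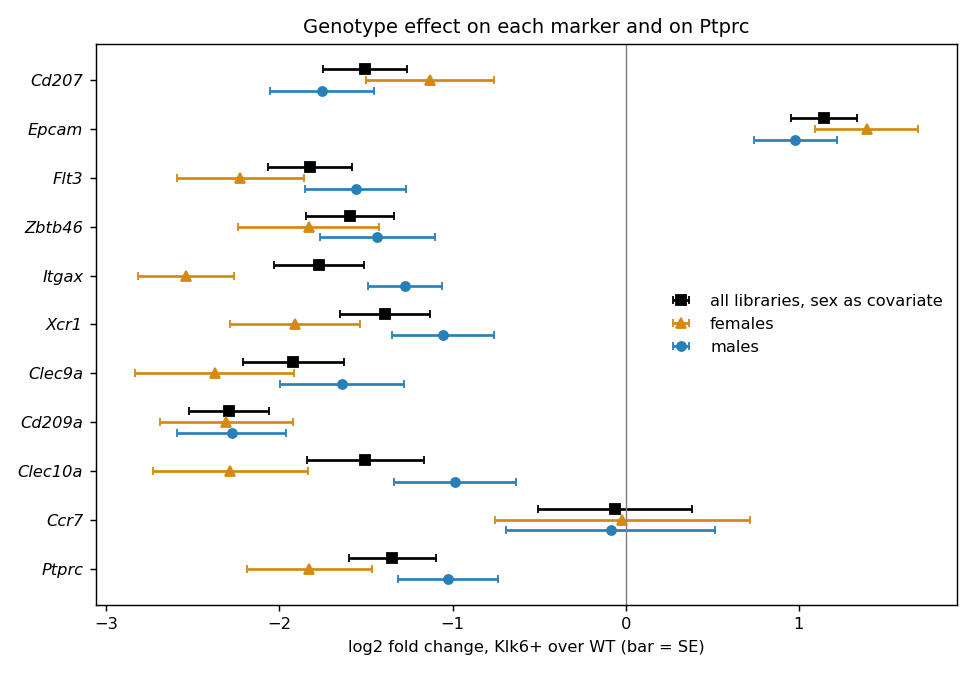
Log2 fold change of Klk6+ over WT (horizontal axis, bar = SE) for the 10 markers and Ptprc in all libraries, in females and in males. The 8 lower markers and Ptprc lie left of 0 in each sex, Epcam lies right of 0, and Ccr7 lies at 0.

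All 9 markers that differed over both sexes were also called in females and in males, in the same direction (edgeR, 4 genotype-by-sex means). The background was 59.6% of all genes called in females (28.4% lower) and 64.4% in males (31.0% lower). The log2 fold change of Itgax was -2.54 ± 0.28 in females and -1.27 ± 0.22 in males, that of Clec10a -2.28 ± 0.45 in females and -0.99 ± 0.35 in males, and that of Cd207 -1.13 ± 0.37 in females and -1.75 ± 0.30 in males. The smallest of these sex-specific calls had little margin. The male Clec10a call (edgeR adjusted p = 0.0341) was lost without Klk6+ replicate 1 or 2 or WT replicate 1, 3 or 5, with values from -1.36 to -0.62 over the libraries left out, and the female Cd207 call (adjusted p = 0.0248) was lost without Klk6+ replicate 4 or 5 or WT replicate 4, with values from -1.31 to -0.96.

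A test of whether the genotype effect differed between sexes (females minus males) called 0 of 14861 genes with edgeR, with 1410 genes at an unadjusted p below 0.05, Itgax (interaction -1.27 ± 0.34, adjusted p = 0.294) and Clec10a (-1.30 ± 0.56, adjusted p = 0.511) among them. DESeq2 called 261 genes, of the markers only Itgax (-1.26, adjusted p = 0.0345). Within WT skin the sexes were placed differently by marker, as a description with no test. Cd207 was 9.88 to 12.3 CPM in WT females and 20.1 to 24.1 in WT males, whereas Clec10a was 350 to 375 CPM in WT females and 81.9 to 166 in WT males.

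The general leukocyte gene Ptprc, which encodes CD45, was set beside these falls. Leukocytes share it, and their lists moved in opposite directions, with neutrophil and mast cell genes mostly higher and macrophage genes mostly lower. Ratios to Ptprc are therefore no scale for dendritic cells alone, and the same holds for the leukocyte gene Coro1a used below. Ptprc had 31.8 ± 11.1 CPM in Klk6+ and 87.2 ± 41.8 CPM in WT, a log2 fold change of -1.35 ± 0.25 (edgeR adjusted p = 0.000711). Of the 10 markers set over Ptprc, Epcam and Cd209a differed by genotype after adjustment. Cd209a over Ptprc was -1.93 ± 0.0943 in Klk6+ and -0.99 ± 0.447 in WT on the log2 scale, a difference of -0.94 (exact permutation p = 0.00794, adjusted 0.0238), and the call was lost without any one of the 5 Klk6+ libraries (adjusted p up to 0.0714). Epcam over Ptprc differed by 2.56 with the same adjusted exact permutation p, and the call was lost without Klk6+ replicate 2 (adjusted p 0.0595). That ratio restates the rise of Epcam beside the fall of Ptprc. Ccr7 over Ptprc was 1.39 higher in Klk6+ and did not pass (exact permutation p = 0.0397, adjusted 0.0992).

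For the other markers the differences relative to Ptprc were -0.54 for Clec9a, -0.44 for Flt3, -0.39 for Itgax, -0.23 for Zbtb46, -0.17 for Cd207, -0.14 for Clec10a and 0.01 for Xcr1, with adjusted exact permutation p of 0.357 or more. These sizes depended on the leukocyte gene. Coro1a, which encodes the actin regulator coronin-1A of leukocytes, had a log2 fold change of -0.72 ± 0.25, a call lost without Klk6+ replicate 1 or WT replicate 3 or 5. Relative to Coro1a the differences were -1.15 for Clec9a, -1.05 for Flt3, -1.004 for Itgax, -0.84 for Zbtb46, -0.78 for Cd207, -0.75 for Clec10a and -0.60 for Xcr1, with adjusted exact permutation p from 0.0595 to 0.330. Relative to Coro1a, Cd209a (-1.55) and Epcam (1.95) again differed by genotype (adjusted exact permutation p = 0.0238). The summed cDC1 markers over the summed cDC2 markers differed by 0.11 (adjusted exact permutation p = 0.859). Macrophage and monocyte genes moved alongside. Of 18 tested, 16 fell and 2 rose, with a median log2 fold change of -1.86 and a summed level of 837 to 2469 CPM in Klk6+ libraries and 2011 to 9580 CPM in WT libraries. Among them were Adgre1 (F4/80) at -2.66 ± 0.27, Mertk at -1.76 ± 0.14 and Fcgr1 (CD64) at -1.93 ± 0.21. Cd14, named after its values were seen, rose by 1.73. Of 10 pan-leukocyte genes 8 fell, and Arhgdib rose by 0.58. Both lists stand beside a background of 35.1% of all genes lower and 37.7% higher. The part of macrophages in the fall of the shared markers Itgax, Cd209a and Clec10a was not tested.

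Levels can be ordered between genes only per transcript length, in FPKM as the authors deposited them. In Klk6+ skin Epcam came first at 67.1 ± 8.53, followed by Clec10a at 43.0 ± 15.9, Cd209a at 5.63 ± 1.94 and Cd207 at 3.86 ± 1.43 FPKM. Ccr7 (0.935 ± 0.489), Itgax (0.811 ± 0.192), Zbtb46 (0.504 ± 0.166), Flt3 (0.314 ± 0.0769), Xcr1 (0.197 ± 0.0445) and Clec9a (0.142 ± 0.0473) came after them, each overlapping the next. In that order of 10, only the steps from Clec10a to Cd209a and from Cd207 to Ccr7 were free of overlap between libraries.

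In WT skin the order began with Clec10a at 142 ± 93.8 FPKM, followed by Epcam at 30.4 ± 8.85 and Cd209a at 27.2 ± 5.70, which overlapped, and Cd207 at 11.4 ± 3.87. Itgax (2.83 ± 0.947), Zbtb46 (1.54 ± 0.469), Flt3 (1.12 ± 0.293), Ccr7 (0.956 ± 0.459), Clec9a (0.518 ± 0.122) and Xcr1 (0.518 ± 0.133) followed, each overlapping its neighbour. Between the genotypes, the means of Epcam and Clec10a changed places at the top and Ccr7 stood ahead of Itgax, Zbtb46 and Flt3 in Klk6+ skin and behind them in WT skin.

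**Figure D4:**
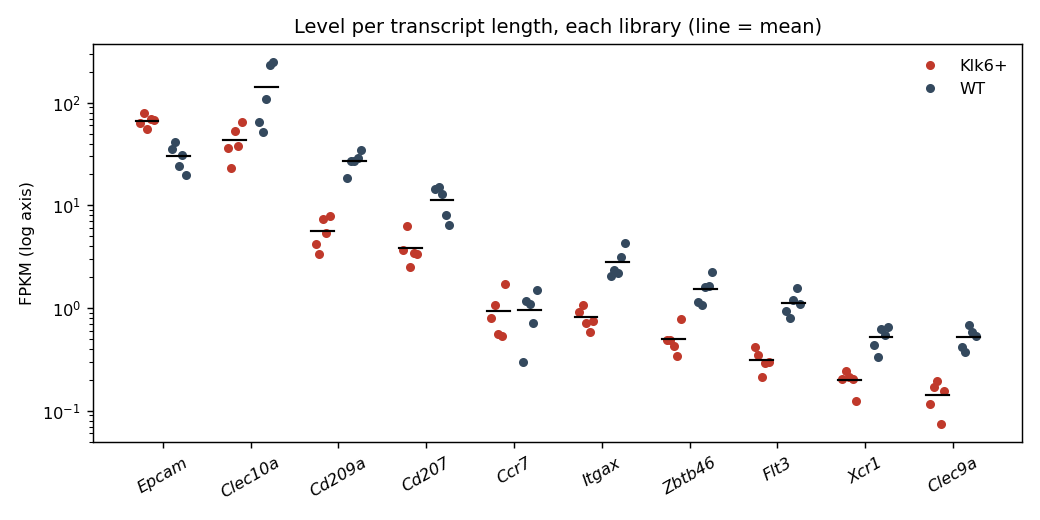
FPKM of each marker (log axis) in the Klk6+ and WT libraries, with a line at the mean, in the order of the Klk6+ means. Clec9a and Xcr1 are lowest in Klk6+ at means of 0.142 and 0.197, and Ccr7 is the marker whose means are alike, 0.935 in Klk6+ and 0.956 in WT.

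Other genes of the same cells were followed through lists chosen from general knowledge. Some genes stand on more than a single list, so the list counts are not independent of each other. The list counts from here on stand beside a background of 37.7% of all genes higher and 35.1% lower. Among 14 growth factors and receptors 7 fell and 3 rose. Flt3l, the ligand of FLT3, had 2.51 ± 0.392 CPM in Klk6+ and 6.71 ± 1.04 CPM in WT, a log2 fold change of -1.41 ± 0.15. Csf1 (-1.85 ± 0.15), Il34 (-1.32 ± 0.15) and their receptor gene Csf1r (-2.47 ± 0.30) also fell. The 3 that rose, named after their values were seen, were Csf2, which encodes GM-CSF (3.42 ± 0.78), Bmp7 (1.07 ± 0.22) and Kit (0.94 ± 0.22).

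Among 16 transcription factors of these cells 8 fell and 3 rose. The median log2 fold change of this list was -0.38. Irf4, used by cDC2, was at -2.96 ± 0.32, Batf3, needed for cDC1, at -3.15 ± 0.35, Zeb2 at -1.73 ± 0.17 and Tcf4 at -0.89 ± 0.08. The 3 that rose, named after their values were seen, were Nfil3 (0.96 ± 0.29), Runx3 (0.90 ± 0.14) and Bcl11a (0.81 ± 0.27). Klf4 (0.14 ± 0.31) and Notch2 (-0.41 ± 0.17) did not pass. Of 12 further cDC1 genes 8 fell and 0 rose, with Wdfy4, needed for cross-presentation, at -2.27 ± 0.20 and Naaa at -1.94 ± 0.18. The 8 include Xcl1, made by natural killer and T cells, and Cd8a (-1.01 ± 0.30), which is also on the T and natural killer cell list. Both are named after their values were seen, and neither is particular to cDC1. Batf3 and Irf8 are counted among these 8 and also among the 8 transcription factors that fell. Irf8 (-1.05 ± 0.21) is named after its values were seen. With a minimum count of 50, 5 of the cDC1 genes were called lower. On log2 FPKM 1 was called higher, Snx22, whose counts and FPKM pointed opposite ways and which is named after its values were seen. It had 0.809 ± 0.282 CPM in Klk6+ and 1.13 ± 0.263 CPM in WT, and 46.4 ± 3.16 FPKM in Klk6+ and 30.2 ± 1.87 FPKM in WT, without overlap in FPKM. Cadm1 (0.46 ± 0.22) and Itgae, the integrin CD103 (0.56 ± 0.26), did not pass over all libraries, and were called higher without Klk6+ replicate 1 (Cadm1) or 3 (Itgae). Of 18 further cDC2 genes 12 fell, with Clec12a at -3.83 ± 0.39 and Clec4a1 at -2.29 ± 0.25, and Ltb (0.74 ± 0.25) and Clec4n, which encodes dectin-2 (1.30 ± 0.20), rose. The rise of Ltb was lost without Klk6+ replicate 1 or 5 and with upper-quartile or housekeeping scaling. Median log2 fold changes were -1.03 for the cDC1 list and -1.55 for the cDC2 list.

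Genes of mature and migrating dendritic cells did not move in a single direction. Of 19 tested 7 rose and 5 fell, with a median of 0.11, beside 37.7% of all genes higher and 35.1% lower. The share of higher genes was near that background, so the split is not particular to this list. Cd274, which encodes PD-L1 and is made by many cell types, rose (1.58 ± 0.14), as did Fscn1, the actin bundler fascin (1.71 ± 0.22). Costimulatory genes were split. Cd83 (-3.62 ± 0.45), Cd40 (-2.02 ± 0.27) and Cd86 (-1.89 ± 0.26) fell, while Cd80 (0.45 ± 0.33) and Icosl (-0.07 ± 0.18) did not pass. Cd86 and Cd80 are named after their values were seen. Cd83 had 2.27 ± 0.713 CPM in Klk6+ and 29.4 ± 19.1 CPM in WT.

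Chemotaxis genes were split as well, with 3 of 11 higher and 6 lower. Ccl20, the chemokine that keratinocytes make and CCR6 reads, had 13.3 ± 4.49 CPM in Klk6+ and 0.508 ± 0.347 CPM in WT, a log2 fold change of 4.89 ± 0.36, and Ccr6 rose by 2.23 ± 0.36. The scavenging receptor gene Ackr4, which in skin removes CCR7 ligands, was at -2.44 ± 0.18 and Ccr2, the receptor of monocytes, at -2.49 ± 0.28. The CCR7 ligand genes Ccl21a and Ccl21b were listed at 0 counts in every library. How reads matching several genes were treated is not stated, so this listing does not show that the ligand was absent. Ccl19, the other CCR7 ligand gene and the third that rose, is named after its values were seen. It had 16.5 ± 8.79 CPM in Klk6+ and 7.97 ± 1.09 CPM in WT, with a log2 fold change of 0.95 ± 0.29 (edgeR adjusted p = 0.0127). Its deposited FPKM are 0 in every library although counts are present, and the call was lost with housekeeping scaling, so it is uncertain.

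Antigen presentation genes had the lowest median of the dendritic cell lists, at -2.77, and 12 of 13 fell with none higher. Cd74, the invariant chain, had a log2 fold change of -3.65 ± 0.33, H2-Eb1 of -3.51 ± 0.33 and H2-DMb1 of -2.77 ± 0.26, and the peptide transporter gene Tap2 of -0.92 ± 0.09. The summed level of the list was 1111 to 1582 CPM in Klk6+ libraries and 4659 to 10085 CPM in WT libraries. None of these genes is particular to dendritic cells, and macrophages and B cells are only some of the other cells that make them.

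Of 11 genes listed for plasmacytoid dendritic cells 7 fell and 3 rose, with Tlr7 at -2.72 ± 0.30, Tlr9 at -2.83 ± 0.31 and Siglech at -3.23 ± 0.43. Cox6a2 (-2.70 ± 0.19) is also a muscle gene. The 3 that rose, named after their values were seen, were Ly6d (1.27 ± 0.19), which keratinocytes make at a high level, Ccr9 (0.94 ± 0.23) and Runx2 (0.72 ± 0.18), whose call was lost with housekeeping scaling. Of 15 pattern receptor and lectin genes 9 fell and 3 rose, with a median of -0.74.

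Lists of other immune cells did not share one direction. Of 12 T and natural killer cell genes 9 fell and 2 rose, of 12 neutrophil genes 11 rose, of 10 mast cell genes 8 rose and 1 fell, and of 3 B cell genes tested 1 rose and 1 fell. The B cell counts changed when Klk6+ replicate 1, 2 or 5 or WT replicate 2, 4 or 5 was left out (0 to 1 higher, 1 to 2 lower).

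**Figure D5:**
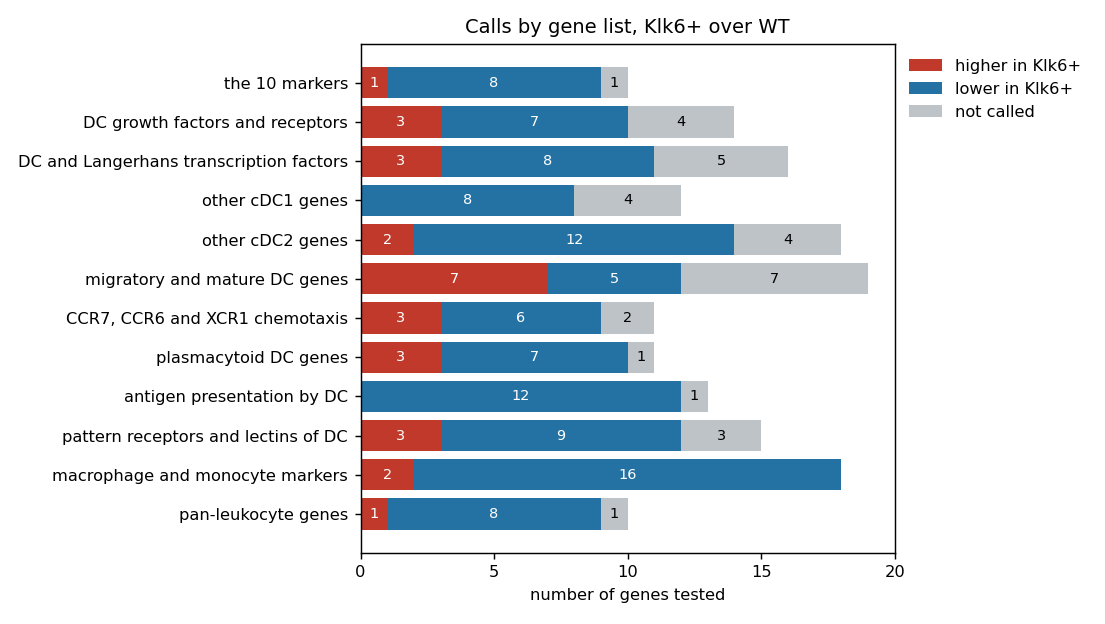
Number of tested genes (horizontal axis) called higher, called lower or not called in Klk6+ over WT, for the 10 markers and 11 lists of related genes. Lower calls prevail in the antigen presentation list (12 of 13) and the macrophage list (16 of 18), and the migratory list holds 7 higher and 5 lower. The background is 37.7% of all genes higher and 35.1% lower.

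Genes were ranked by how closely their profile over the 10 libraries followed each marker, as the root mean square of the difference in centred log2 CPM over 13857 genes of at least 1 CPM. This is a description, since the genotype difference sets most of it. Mycl (0.267), Gjb5 (0.274) and Cited4 (0.282) lay nearest to Cd207. Plekhg6 (0.0814), 2010300C02Rik (0.103) and Pkmyt1 (0.110) lay nearest to Epcam, and Naip2 (0.164), Sepp1 (0.197) and Il10ra (0.203) to Clec10a. Among the markers themselves, Zbtb46 and Itgax (0.338), Flt3 and Itgax (0.339) and Zbtb46 and Clec9a (0.340) were the closest pairs, and Epcam and Cd209a (1.85) were the farthest apart.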

How the data were processed

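Skin RNA from 10 mice was sequenced from polyA-selected, unstranded libraries as single-end 50-cycle reads, per the labels' protocols. Read counts per gene were deposited by the authors as whole numbers without normalization, and FPKM values were scaled by the authors to transcript length and library size. The submitters' processing notes list Cufflinks (2.2.1), HTSeq, TopHat2 and SAMtools, and the mouse build GRCm38. The treatment of reads matching several genes is not stated in the labels, so genes with near copies are uncertain. Total counts ranged from 26521019 to 41970272 per library. Replicates are separate mice; no batch was given in the labels, and replicate numbers follow accession order. In all 10 libraries the Y-linked genes matched the labelled sex.

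Counts were tested in R 4.3.3 with edgeR 4.0.16 (filterByExpr with a minimum count of 10, TMM scaling, genotype with sex as covariate, and a model of 4 genotype-by-sex means for each sex and the interaction; biological coefficient of variation 0.244). P-values were adjusted by Benjamini-Hochberg over 14861 genes, and genes with adjusted p below 0.05 were called. Log2 fold changes are given ± model SE and CPM, FPKM and ratios as mean ± SD over 5 mice. Ratios within a library (prior count 0.5) were tested by exact permutation (two-sided), with p adjusted over 15 ratios. Alternatives used limma 3.58.1, DESeq2 1.42.0, other scalings, filters, FPKM pseudocounts (0.1 and 1) and leaving out each library. The fits were run on simulated data in which 200 of 14861 genes changed. In these mice 72.8% of genes differed, so that simulation cannot check scaling or false calls at such an extent.

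The markers, lists and tests were chosen with earlier results of these data known. The rule for list genes named the 4 called genes of smallest p and some that did not pass, and others are named where a small count called for it, after their values were seen. Some genes covered by the rule or by such a count are not reported here. Likeness used CPM with a prior count of 2. Gene positions came from GENCODE M21 and promoters from RefSeq, both on GRCm38; no sequence comparison of the proteins was made.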

Additional observations from a re-analysis of the deposited data

Results flagged for a closer look

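The Cd207 level of Klk6+ replicate 2, a male, stood apart from the other Klk6+ libraries. It was 10.1 CPM, against 3.95 to 5.64 CPM in the other 4, and its gap to the nearest of them was 0.724 of the group's range, above the critical value of 0.71 for 5 samples. It was the only such sample among 20 sets of marker and genotype, and chance flags about 1 in 20. The fall of Cd207 in Klk6+ was called with and without it.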

How the results depend on the processing

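The 9 called markers kept their direction and their call under all 22 alternatives (21 for Clec9a, which a minimum count of 50 removed). Log2 fold changes ranged from -2.54 to -2.12 for Cd209a, -2.03 to -1.05 for Itgax, -1.78 to -1.33 for Clec10a, -1.76 to -1.33 for Cd207 and 0.90 to 1.26 for Epcam. On log2(FPKM + 1), low genes gave smaller values, -0.34 for Xcr1, -0.41 for Clec9a, -0.68 for Flt3 and -0.74 for Zbtb46, as the pseudocount makes them. Housekeeping scaling moved the median of all genes by -0.25. Ccr7 changed sign on log2(FPKM + 0.1), where it was 0.0012, and ranged from -0.44 to 0.10 over the libraries left out, from -1.16 to 0.58 in females and from -0.52 to 0.21 in males; it was never called. Over the libraries left out, Cd207 in females was -1.31 to -0.96 and Clec10a in males -1.36 to -0.62. For the interaction DESeq2 called 261 genes (82 higher, 179 lower), including 1 marker, Itgax at -1.26; the cause was not tested. Leaving out 1 library gave 0 to 4 interaction calls (0 to 2 in each direction), and interactions of -1.18 to 0.11 for Zbtb46, -1.01 to 0.68 for Ccr7 and -0.34 to 0.39 for Cd209a. Snx22, which did not pass on counts, was 0.62 on log2(FPKM + 0.1) and 0.60 on log2(FPKM + 1). Among ratios, Xcr1 over leukocyte RNA was -0.60 with Coro1a in place of Ptprc and -0.23 to 0.33 over the libraries left out, and Clec9a over Ptprc was 0.0024 from FPKM. Over the libraries left out, Cd207 over Ptprc was -0.57 to 0.13, Epcam over Ptprc 2.202 to 2.83, Cd209a over Ptprc -1.06 to -0.83, Epcam over Krt5 -0.021 to 0.17, the cDC1 over cDC2 sum -0.16 to 0.35 and Ccr7 over Itgax 1.505 to 1.95. Counts of 8 to 24 limit Clec9a in Klk6+. No paired analysis was possible because the labels carry no replicate numbers that link Klk6+ and WT mice.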
